A study of Mus musculus with 43 samples.

Results

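Wild-type full-grown mouse oocytes were sequenced in 2 separate sets within a study of Polycomb repression, and the RNA of these 2 control sets is compared with each other. The PRC1-WT set holds 2 libraries and served as the control of oocytes with catalytically dead PRC1. The P1P6MLL WT set holds 3 libraries and served as the control of oocytes lacking Pcgf1/6 and Mll2 (triple knockout, TKO) or Pcgf1/6 (double knockout, DKO). The 5 libraries were taken by their labels from the 43 of the series, and the question is which transcripts are stable in normal oocytes and which differ between colonies or batches.

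All 5 libraries are labelled wild type, ovary and full-grown oocyte, and cDNA was made from polyadenylated RNA with the SMART-Seq v4 kit. For PRC1-WT the labels state that each library holds 10 pooled oocytes freed of the zona pellucida in acidic Tyrode's solution. The number of oocytes in a P1P6MLL WT library, the strain, the age and the number of animals are not given in the sources used here for either set. Values of mutant libraries in the same tables are given beside several results, from 2 PRC1-CD (PRC1 catalytic dead), 3 TKO and 3 DKO libraries. The deletion method of these alleles was not given in the sources used here.

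A full-grown oocyte makes little new RNA. It lives on a store of mRNA built during growth, which carries it through meiotic maturation and the first cleavages, so a transcript's level reflects synthesis, storage and decay together. PRC1 places ubiquitin on histone H2A through its RING1 and RNF2 subunits, PCGF1 and PCGF6 define variant forms of the complex, and MLL2, encoded by Kmt2b, methylates histone H3 at lysine 4.

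The unit is RPKM, read counts divided by transcript length and by the number of mapped reads. A difference is the mean log2(RPKM + 1) of PRC1-WT minus that of P1P6MLL WT. Of 35815 gene symbols in both tables, 12019 reached a mean of 1 RPKM in at least 1 set and are called tested genes. A gene was called differing where no library of one set overlapped the other set and the difference was at least 1, a 2-fold change on this scale. A gene was called stable where all 5 values lay within 0.5 of each other and averaged at least 10 RPKM. The tables were normalised separately, so no test was run across them, and 2 against 3 libraries could not go below p = 0.1 in an exact two-sided permutation test. Colony, batch, handling and processing cannot be told apart.

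The libraries carried oocyte RNA and were close to each other. All 13 oocyte markers reached 1 RPKM in both sets, and their sum was 15891 and 21268 RPKM in PRC1-WT, against 23599, 22101 and 22852 RPKM in P1P6MLL WT. Of 21 granulosa and cumulus markers, 5 reached a mean of 1 RPKM in PRC1-WT and 4 in P1P6MLL WT. Their sum was 36.5 and 38.9 RPKM in PRC1-WT, against 35.8, 32.5 and 31.9 RPKM in P1P6MLL WT, and Foxl2, Ptx3 and Tnfaip6 were listed at 0 in all 5 libraries. Of 16 stroma, vessel and blood markers, 9 were listed at 0 throughout, and the list summed to between 10.3 and 13.7 RPKM. The first PRC1-WT library stood apart from the other 4. Its RPKM summed to 622628, against 663193 to 667832 in the others, and Dppa3, which protects the maternal genome from demethylation, had 3066 RPKM there and 5237 RPKM in the second PRC1-WT library. Pearson's r across tested genes was 0.985 between the PRC1-WT libraries, 0.977 to 0.984 between sets, and 0.992 to 0.994 within P1P6MLL WT. The first P1P6MLL WT library stood apart in single genes, lying at least 1 on the log2 scale from both others in 54 tested genes, against 20 and 17 for the second and the third library.

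A small set of transcripts separated the controls. Of 12019 tested genes, 172 differed (1.43%), 88 of them higher in PRC1-WT (0.732%) and 84 lower (0.699%). Rescaling each library to a common total gave 141 higher and 88 lower, and aligning the medians gave 76 higher and 113 lower, so the balance of directions rests on the scaling. Without the first PRC1-WT library 251 genes differed and 143 of the 172 were still among them, and without the second 289 differed with 142 of the 172 among them. Without the first P1P6MLL WT library 205 differed, with 156 of the 172 among them. The call was kept by 102 of the 172 whichever of the 5 libraries was left out. The difference was 4-fold or more in 28 genes and 8-fold or more in 13. In 117 genes the gap between the sets exceeded the widest range inside a set. At any size, 5189 genes did not overlap between the sets (43.2%), and 90.6% of tested genes had a difference within 0.5. The median difference of tested genes was 0.08, and the 5th and 95th percentiles were -0.42 and 0.53. Another 35 genes passed 2-fold but overlapped. Just inside the limit lay Acy3, Snhg6, Bcat2 and 4932438A13Rik at -1.01, and just outside lay Vmn1r115, Ddx17, Gm33044 and Lpl at 0.99.

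**Figure D1:**
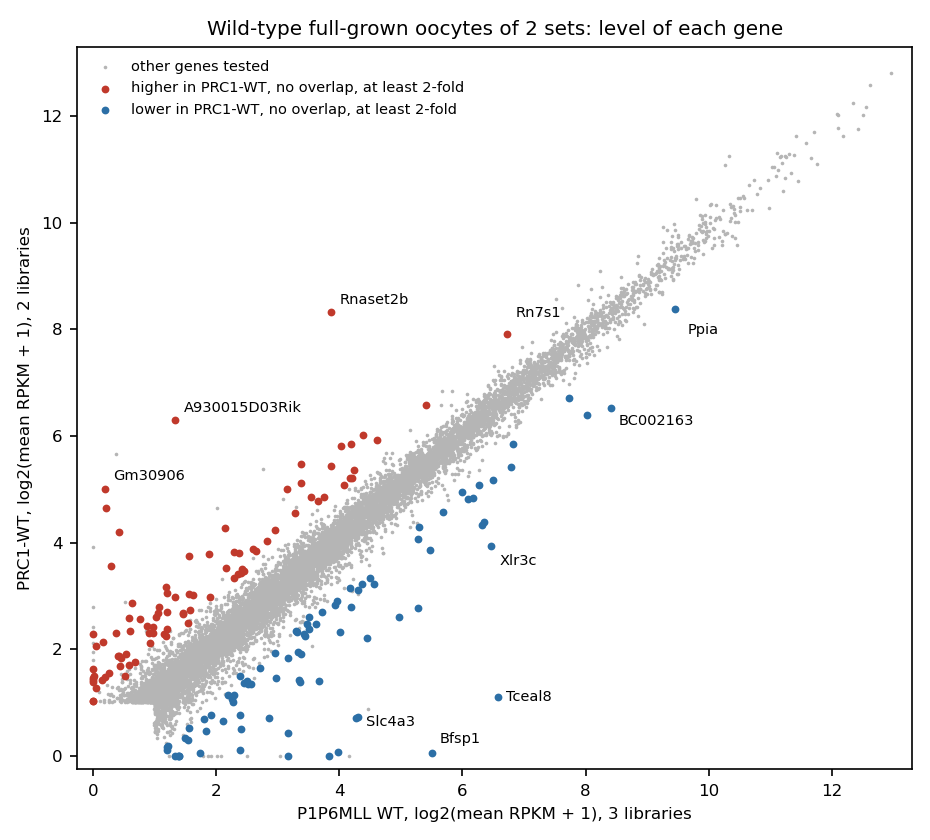
Mean level of each tested gene in PRC1-WT (vertical axis, 2 libraries) against P1P6MLL WT (horizontal axis, 3 libraries), both as log2(mean RPKM + 1). The 88 genes higher in PRC1-WT are red, the 84 lower are blue, and the other tested genes (grey) lie along the diagonal.

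Most well expressed transcripts were stable, a call that allows a 1.41-fold range on this scale and does not require the sets to overlap. Of 5597 genes with a mean of at least 10 RPKM, 4027 were stable (71.9%) and 56 differed. Among the 1248 genes with a mean of at least 100 RPKM, 950 were stable, and 57 had all 5 values within 0.1. Taf1a, a subunit of the RNA polymerase I selectivity factor, had the narrowest range. It had 166 and 169 RPKM in PRC1-WT, against 169, 167 and 168 RPKM in P1P6MLL WT. Gins4, part of the replicative helicase, had 142 and 143 RPKM in PRC1-WT, against 144, 145 and 146 RPKM in P1P6MLL WT. Eif4e, the cap-binding protein of translation, had 307 and 301 RPKM in PRC1-WT, against 303, 307 and 299 RPKM in P1P6MLL WT. The spread over all 5 libraries in these genes was a few percent of the level. Spin1, a meiotic chromatin reader that is abundant in oocytes, lay between 1281 and 1325 RPKM, and Cks2, a cyclin-dependent kinase partner needed in female meiosis, lay between 1394 and 1451 RPKM. Atp5c1, Spag7, Eif4a3, Psmd10 and Ccdc69 complete the 10 with the narrowest range, which was at most 0.06 in all 10.

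Of the 10 most abundant transcripts, 6 were stable. Gm15698 had the highest mean, with 6487 and 7858 RPKM in PRC1-WT, against 8052, 7933 and 7788 RPKM in P1P6MLL WT. H1foo, the oocyte linker histone, had 4687 and 5045 RPKM in PRC1-WT, against 5214, 5239 and 5075 RPKM in P1P6MLL WT. Omt2b, an oocyte maturation transcript, had 4197 and 4285 RPKM in PRC1-WT, against 4420, 4203 and 4373 RPKM in P1P6MLL WT. These 3 were among the 6, with Ubb, Obox2 and Gm1821. Obox2 was stable although its sets did not overlap, at 4644 and 4576 RPKM in PRC1-WT, against 6288, 5768 and 5906 RPKM in P1P6MLL WT. Ldhb, the lactate dehydrogenase subunit of oocytes, had 2284 and 4668 RPKM in PRC1-WT, against 5777, 5106 and 5627 RPKM in P1P6MLL WT. Its difference of -0.75 was set largely by the first PRC1-WT library, and the same library was the lowest for Dppa3, Gm813 and E330017A01Rik. None of these 10 genes differed by the 2-fold rule.

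Among the oocyte and maternal-effect genes, 0 of 50 tested differed, against 1.43% of all tested genes. Of the 48 with a mean of at least 10 RPKM, 33 were stable, near the 71.9% of all genes at that level. The median difference of the list was -0.01, and it turned positive under a common total (0.04) and under quantile normalisation (0.08). The proteasome subunits, which degrade ubiquitin-tagged proteins, were stable in 28 of 30, with a median of -0.05 that turned positive under a common total. Psmb2 was one of the 2 exceptions, with 428 and 625 RPKM in PRC1-WT, against 740, 699 and 709 RPKM in P1P6MLL WT. All 10 PRC2 subunits with a mean of at least 10 RPKM were stable, with Ezh2, the histone H3 lysine 27 methyltransferase, at 162 and 156 RPKM in PRC1-WT, against 139, 148 and 142 RPKM in P1P6MLL WT. Of the genes of DNA methylation 8 of 10 were stable, and Dnmt3l, the cofactor of de novo methylation in oocytes, lay between 65.8 and 68.1 RPKM. None of the 20 tested imprinted genes differed, against 1.43% of all tested genes. In 11 of the 20 the sets did not overlap, against 43.2% of all tested genes. Of the 6 imprinted genes with a mean of at least 10 RPKM, 3 were stable.

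The transcripts higher in PRC1-WT were led by noncoding RNAs, kinases and a ribonuclease copy. A930015D03Rik, a long noncoding RNA at 35994504 to 36038174 on chromosome 17 (GRCm38.p6), had 73.0 and 81.7 RPKM in PRC1-WT, against 1.73, 1.49 and 1.38 RPKM in P1P6MLL WT. Its difference of 4.95 was the largest increase, and 90.1% of its 31-base words also occur in transcripts of other genes. Gm30906, a noncoding RNA on chromosome 10, had 40.7 and 21.9 RPKM in PRC1-WT, against 0.06, 0.21 and 0.18 RPKM in P1P6MLL WT. Both were far from any overlap. Stk32a, a serine/threonine kinase gene on chromosome 18, had 23.9 and 24.5 RPKM in PRC1-WT, against 0.22, 0.14 and 0.13 RPKM in P1P6MLL WT. Stk36, a kinase of ciliated cells related to fly Fused, had 19.02 and 17.7 RPKM in PRC1-WT, against 7.93, 1.06 and 1.31 RPKM in P1P6MLL WT. Ublcp1, a phosphatase that acts on the proteasome, had 45.6 and 41.3 RPKM in PRC1-WT, against 19.5, 5.18 and 3.77 RPKM in P1P6MLL WT. For both genes the first P1P6MLL WT library lay between the other 2 and PRC1-WT. Mapkapk2, a kinase downstream of p38, had 4.79 and 7.85 RPKM in PRC1-WT, against 0.42, 0.37 and 0.89 RPKM in P1P6MLL WT. LOC108167601, Gm30863, 1700029F12Rik, Lzts1, Nlrp5-ps, Zfp961, 7420701I03Rik and Gm4541 were also among the 15 largest, with differences of 1.87 to 3.78.

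The transcripts lower in PRC1-WT included several that were almost missing there. Bfsp1 encodes filensin, a beaded-filament protein known from the lens, and lies at 143826528 to 143915219 on chromosome 2. It had 0.02 and 0.04 RPKM in PRC1-WT, against 65.6, 36.2 and 30.96 RPKM in P1P6MLL WT, a difference of -5.38 and the largest of all in size. Slc4a3, an anion exchanger gene, had 0.66 and 0.64 RPKM in PRC1-WT, against 10.6, 23.7 and 21.9 RPKM in P1P6MLL WT. Both genes were separated by more than their widest range inside a set. Tceal8, an X-linked gene of the elongation factor A-like family, had 1.40 and 0.90 RPKM in PRC1-WT, against 2.33, 146 and 135 RPKM in P1P6MLL WT. Here 2 libraries of P1P6MLL WT were high and the first was low, so the separation from PRC1-WT was narrow. Gm35239 had the same form, listed at 0 in both PRC1-WT libraries, against 0.04, 11.7 and 12.3 RPKM in P1P6MLL WT. Gm35957, a noncoding RNA on chromosome 4, had 0.51 and 0.76 RPKM in PRC1-WT, against 19.99, 17.3 and 17.9 RPKM in P1P6MLL WT. Thg1l, which adds the guanine of histidine tRNA, had 4.34 and 2.89 RPKM in PRC1-WT, against 13.9, 23.96 and 25.1 RPKM in P1P6MLL WT. Tpm4, a tropomyosin, had 0.62 and 0.65 RPKM in PRC1-WT, against 4.14, 7.80 and 6.98 RPKM in P1P6MLL WT. Cyp2c53-ps, a cytochrome P450 pseudogene, had 24.97 and 14.7 RPKM in PRC1-WT, against 96.9, 72.1 and 72.4 RPKM in P1P6MLL WT. LOC102640520, Mir678, Gm36235, Xlr3c, 4921531P14Rik and LOC108168060 had differences of -2.37 to -3.87, and 2310045n01rik-mef2b, listed at 0 in PRC1-WT, completes the 15. A930015D03Rik, Gm30906, Stk32a, Gm30863, Stk36, 1700029F12Rik, Mapkapk2, Lzts1 and Nlrp5-ps overlap another annotated gene. So do Bfsp1, 2310045n01rik-mef2b, Mir678, Gm35239 and 4921531P14Rik. Among genes with a position in the RefSeq annotation, 42.1% of differing and 45.9% of tested genes overlap another. Reads of overlapping genes cannot be told apart because the kit does not mark strand. In pooled oocytes, less transcript in each oocyte and fewer oocytes that carry it cannot be told apart.

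**Figure D2:**
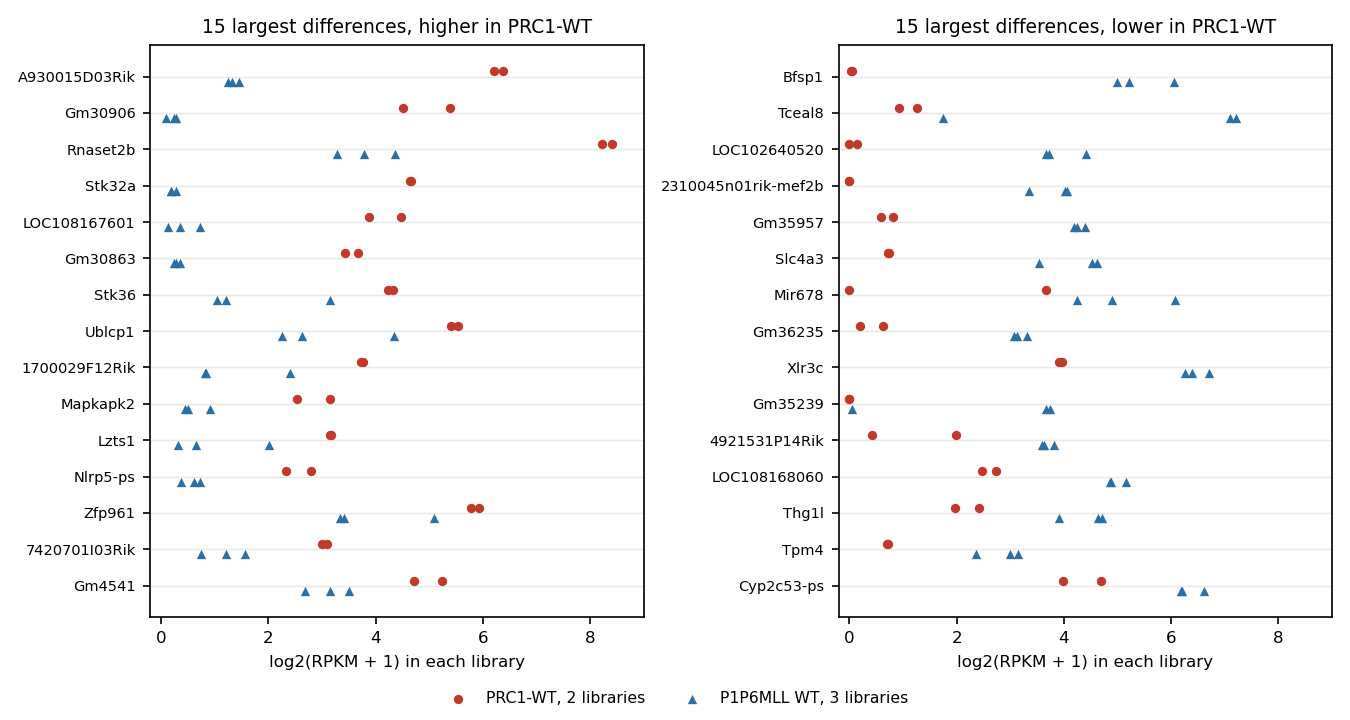
Level in each library, as log2(RPKM + 1), of the 15 genes with the largest differences in each direction whose higher set averaged at least 5 RPKM. Red circles are the 2 PRC1-WT libraries and blue triangles the 3 P1P6MLL WT libraries, which do not overlap for any of these genes.

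Some of these genes have near-identical copies, between which short reads can be divided in more than 1 way. Rnaset2b, at 6978860 to 6998193 on chromosome 17, and Rnaset2a, at 8128580 to 8148246 on the same chromosome, both encode ribonuclease T2, a lysosomal RNA-degrading enzyme. Their 780 coding bases were identical in the GENCODE M21 transcripts Rnaset2b-201 and Rnaset2a-201. The first 60 coding bases, at chr17:6978998-6979057 on the plus strand and chr17:8147635-8147694 on the minus strand of GRCm38, are printed for both copies to show that nothing in them separates the copies, so no letter is in capitals.
Rnaset2b: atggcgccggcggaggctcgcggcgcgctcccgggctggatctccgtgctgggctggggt
Rnaset2a: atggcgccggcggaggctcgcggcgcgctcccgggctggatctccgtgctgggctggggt

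Rnaset2b had 299.9 and 339 RPKM in PRC1-WT, against 19.5, 8.73 and 12.8 RPKM in P1P6MLL WT. Rnaset2a had 1449 and 1541 RPKM in PRC1-WT, against 1722, 1767 and 1804 RPKM in P1P6MLL WT, and was stable with a difference of -0.24. The low copy differed by 4.51 on the log2 scale while the high copy did not differ, and the level of each copy is uncertain because reads in the coding part fit both.

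The Xlr genes, an X-linked family named for expression in lymphocytes, lie in clusters of close copies. The coding bases of Xlr3c-201 and Xlr3a-201 matched at 98.2% of 666 aligned positions, with 12 mismatches and 114 bases as the longest identical run. The 60-base stretch with the most mismatches is shown, from base 315 of the Xlr3c coding sequence and base 300 of that of Xlr3a, with the 3 mismatched bases in capitals. Both stretches are on the minus strand and cross an intron, at chrX:73259148-73260022 for Xlr3c and chrX:73090914-73091788 for Xlr3a.
Xlr3c: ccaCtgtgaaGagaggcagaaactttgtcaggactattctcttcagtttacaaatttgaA
Xlr3a: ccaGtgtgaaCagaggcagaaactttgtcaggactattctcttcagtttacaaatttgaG

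Xlr3c had 14.1 and 14.6 RPKM in PRC1-WT, against 104, 75.1 and 82.5 RPKM in P1P6MLL WT. Xlr5c had 14.7 and 12.3 RPKM in PRC1-WT, against 43.6, 39.7 and 46.6 RPKM in P1P6MLL WT, and Xlr5b had 4.41 and 4.70 RPKM in PRC1-WT, against 13.4, 10.2 and 10.3 RPKM in P1P6MLL WT. These 3 of the 10 tested members were lower, against 0.699% of all tested genes. The other 7 did not overlap between the sets either and had differences of -0.42 to -0.98. The median of the family was -0.78, against 0.08 for all tested genes, and it lay between -0.80 and -0.87 under the other scalings. Xlr3a, the most abundant member, had 132 and 157 RPKM in PRC1-WT, against 207, 184 and 187 RPKM in P1P6MLL WT. In the mutants Xlr3c had 59.8 and 75.7 RPKM in PRC1-CD, 1.23 to 2.13 RPKM in TKO and 64.8 to 108 RPKM in DKO, so its low level in PRC1-WT was not shared by PRC1-CD. The other 2 genes went another way. Xlr5c had 7.55 and 10.5 RPKM in PRC1-CD, under both PRC1-WT libraries, 0.18 to 1.09 RPKM in TKO and 4.71 to 23.2 RPKM in DKO. Xlr5b had 6.03 and 7.21 RPKM in PRC1-CD, between the control sets, 0 to 0.17 RPKM in TKO and 4.99 to 9.29 RPKM in DKO.

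Other copies split reads visibly. Rn7s1 and Rn7s2, 2 copies of the 7SL RNA of the signal recognition particle on chromosome 12, were both given 219.9 RPKM in the first PRC1-WT library, while the second gave them 262 and 2.75 RPKM. Both had 102, 111 and 102 RPKM in the P1P6MLL WT libraries. Rn7s1 was therefore called higher and Rn7s2 was not, although their values are shared in 4 of 5 libraries. Gm4141 and Gm4201, called higher at a mean of about 1 RPKM, had equal values in all 5 libraries. Mir678 is among the genes named by size, but it entered as a hairpin gene in a polyadenylated library, and its mature sequence in RefSeq, from chr10:76207333-76207354 on the minus strand, is given with the seed (bases 2 to 8) in capitals.
mmu-miR-678: gUCUCGGUgcaaggacuggagg

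Mir678 had 0 and 11.8 RPKM in PRC1-WT, against 66.5, 28.7 and 17.9 RPKM in P1P6MLL WT. The spread inside PRC1-WT was wider than the gap to P1P6MLL WT.

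In the mutant libraries some differences followed the table and others did not. In 74 of the 172 differing genes (43.0%) all 4 libraries of the PRC1 table lay on 1 side of all 9 libraries of the P1P6MLL table, against 462 of all 12019 tested genes (3.84%). This count includes the control libraries that chose the 172 genes, and among the 5189 genes whose control sets did not overlap the share was 8.9%. The count rests on order alone, with no limit on the size of the gap. The mutants share a table and its normalisation with their controls but also carry mutations. Ring1, one of the 2 catalytic subunits of PRC1, had 3.15 and 3.24 RPKM in PRC1-WT, against 0.06, 0.02 and 0.02 RPKM in P1P6MLL WT. It had 3.76 and 2.42 RPKM in PRC1-CD and between 0.07 and 0.17 RPKM in the 6 TKO and DKO libraries, so the whole PRC1 table was higher. Slc4a3, Gm30906 and Stk36 also divided by table. Nudcd3, a dynein cochaperone gene, had 8.24 and 8.34 RPKM in PRC1-WT, against 22.6, 23.3 and 22.5 RPKM in P1P6MLL WT. It had 8.37 and 9.20 RPKM in PRC1-CD and 16.6 to 29.7 RPKM in the TKO and DKO libraries.

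A number of differing genes were high in 1 library and low in another of the same genotype. A930015D03Rik was high in both PRC1-CD libraries (161 and 155 RPKM) and in the first DKO library (103 RPKM), and had at most 4.29 RPKM in the other 5 TKO and DKO libraries. Stk32a had 54.1 RPKM in the first PRC1-CD library and 0.29 RPKM in the second. Bfsp1 had 223 and 91.6 RPKM in the first and the third TKO library and 0.09 RPKM in the second. Each of these splits runs inside a labelled group. Rnaset2b crossed the tables in the other direction, with 7.05 and 22.5 RPKM in PRC1-CD and between 268 and 592 RPKM in the 6 TKO and DKO libraries. Gm35957 was high in 3 of the 6 TKO and DKO libraries, at 13.2 to 21.1 RPKM, and at most 0.92 RPKM in the other 3. Tceal8 had 66.3 and 57.6 RPKM in PRC1-CD, and 2.54 RPKM in the third TKO library against 184 RPKM in the first DKO library. A 4-fold range on the log2(RPKM + 1) scale within at least 1 of the 5 oocyte groups was found in 38 of 172 differing genes (22.1%) and in 142 of 12019 tested genes (1.18%). In the 3 mutant groups alone the counts were 33 (19.2%) and 109 (0.907%). In 58 of the 172 at least 1 PRC1-CD library lay on the P1P6MLL WT side of the midpoint between the control sets. In 99 of the 172 at least 1 TKO or DKO library lay on the PRC1-WT side, and in 47 no mutant library crossed. These counts of crossing were not set beside a share over all tested genes, so they describe the 172 alone.

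**Figure D3:**
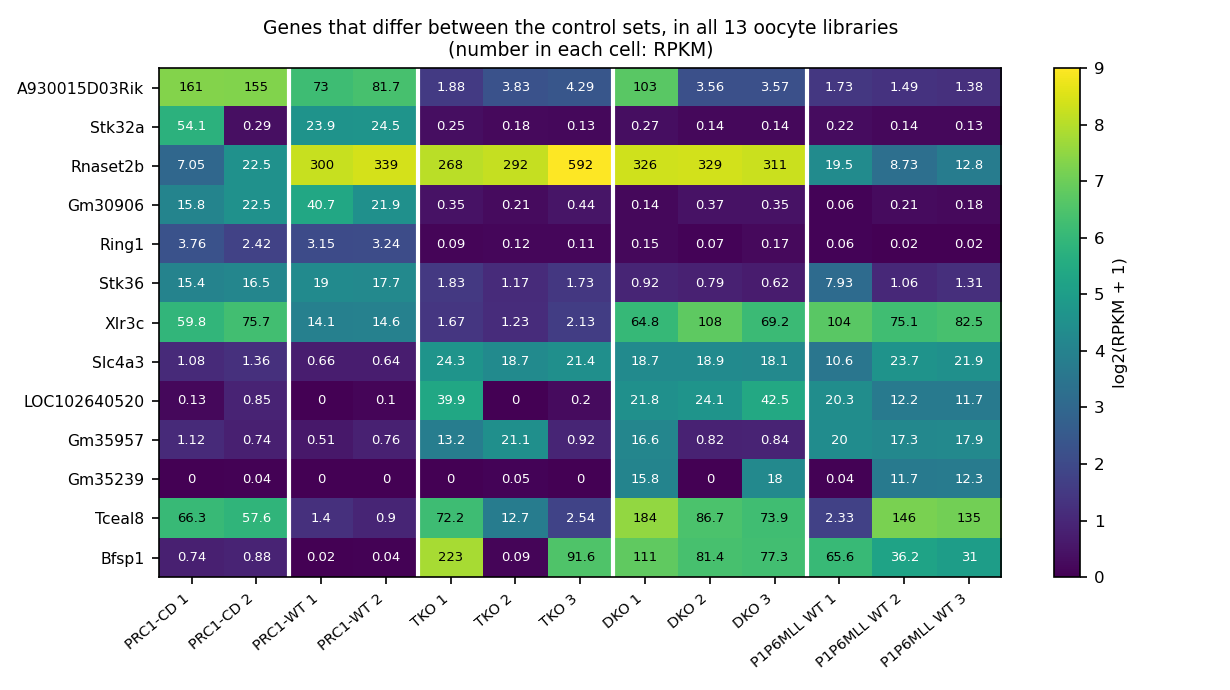
RPKM (numbers) and log2(RPKM + 1) (colour) of 13 differing genes in the 13 oocyte libraries, in columns by group from PRC1-CD and PRC1-WT to TKO, DKO and P1P6MLL WT. Ring1, Gm30906, Stk36 and Slc4a3 divide by table. Stk32a, Bfsp1, Gm35957, Gm35239 and Tceal8 are high and low within a labelled group, though Stk32a also divides by table, by a narrow margin.

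Differing genes lay close to each other along the chromosomes. Of the 159 with a position in the RefSeq annotation, 79 (49.7%) had another differing gene within 1 Mb, against 14.6% to 14.7% of the 11553 placed genes that did not differ, whether or not overlapping neighbours were counted. The share of tested genes that differed ran from 3.08% on chromosome 13 to 0 of 411 on chromosome 14. There were 10 runs of at least 3 differing genes in which each lay within 1 Mb of the next. The runs are descriptive, since the genes in them were linked after their differences were seen.

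The longest run lay between 69132659 and 72225034 on chromosome 8 and held 11 differing genes among 72 tested, 5 higher and 6 lower in PRC1-WT. Zfp961, a zinc finger gene, had 60.1 and 53.8 RPKM in PRC1-WT, against 33.1, 9.66 and 9.11 RPKM in P1P6MLL WT. Mef2b, a MADS-box transcription factor gene, had 20.7 and 17.3 RPKM in PRC1-WT, against 53.5, 90.3 and 93.0 RPKM in P1P6MLL WT. Ifi30, a lysosomal thiol reductase gene, had 3.14 and 4.84 RPKM in PRC1-WT, against 9.17, 18.5 and 17.8 RPKM in P1P6MLL WT. In each of them the first P1P6MLL WT library fell between PRC1-WT and the other 2. That library was the one nearest to PRC1-WT in 11 of the 11 differing genes and in 47 of the 72 tested genes of the stretch (65.3%), against 31.2% of all tested genes. Mef2b overlaps the read-through gene 2310045n01rik-mef2b, listed at 0 in PRC1-WT, against 9.16, 15.2 and 15.7 RPKM in P1P6MLL WT, and reads in shared exons cannot be assigned to 1 of them with certainty. Bst2, Gm5373, Lzts1 and Mau2 were the other higher genes, and Gm17576, Tpm4 and Fam32a the other lower ones. The calls of Bst2 and Mau2 were lost without the third P1P6MLL WT library, at 0.85 and 0.91. Gm17576 lost its call without the second P1P6MLL WT library, at -0.66, and Bst2 and Gm17576 also lost theirs without the second PRC1-WT library, at 0.98 and -0.97. Fam32a had 35.3 and 34.97 RPKM in PRC1-WT, against 69.1, 100.5 and 98.0 RPKM in P1P6MLL WT, and had 35.2 and 34.8 RPKM in PRC1-CD. In a run on chromosome 1 between 74409384 and 75559431, with Vil1, Rnf25, Stk36 and Slc4a3, the first P1P6MLL WT library was the nearest in 4 of 4 differing genes and in 10 of 24 tested genes (41.7%). The calls of Vil1 and Rnf25 were lost without the third P1P6MLL WT library, at 0.89 and 0.99, and that of Vil1 also without the first PRC1-WT library, at 0.98. In the other 8 runs the first P1P6MLL WT library was the nearest in 0 to 2 differing genes, and in 4 of these runs in none. Over all 172 genes it was the nearest in 77 (44.8%), the second library in 46 and the third in 49.

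**Figure D4:**
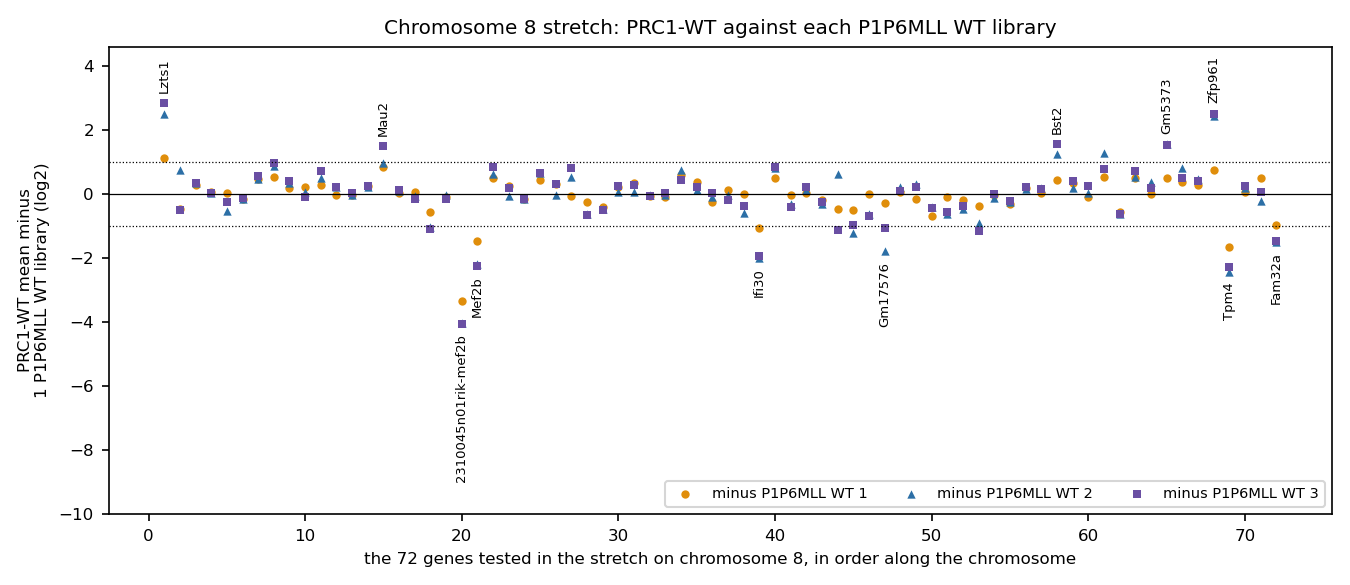
PRC1-WT mean minus each of the 3 P1P6MLL WT libraries, in log2(RPKM + 1), for the 72 tested genes of the chromosome 8 stretch in chromosomal order, with the 11 differing genes named and dotted lines at a 2-fold difference. The first P1P6MLL WT library (orange) lies nearest to 0 in all 11.

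A smaller run held histone genes. On chromosome 13, between 21786774 and 22036320, the histone genes Hist1h2an, Hist1h2ao and Hist1h2bk were lower. Hist1h2bk had 30.0 and 24.5 RPKM in PRC1-WT, against 65.7, 63.7 and 73.3 RPKM in P1P6MLL WT, while 3 of 33 tested replication-dependent histones differed in all, against 1.43% of all tested genes. Their median was -0.06, and it turned to 0.12 without the second PRC1-WT library. Hist1h2ao lost its call without the second PRC1-WT library, at -0.81. Hist1h2an was listed at 0 in both PRC1-WT libraries, against 2.77, 0.96 and 1.18 RPKM in P1P6MLL WT. Of the sequence words of Hist1h2an, Hist1h2ao and Hist1h2bk, 89.0%, 93.8% and 75.3% also occur in transcripts of other genes. The level of each of the 3 genes, and with it their count, is therefore uncertain. The libraries were made from polyadenylated RNA, and the part of polyadenylation in the histone values was not tested. On chromosome 11, between 6105691 and 6528760, Nudcd3 and Ppia were lower and Snhg15 higher. Ppia, cyclophilin A and a common reference gene for quantitative PCR, had 216 and 447 RPKM in PRC1-WT, against 707, 764 and 631 RPKM in P1P6MLL WT. Its difference was -1.17 and -0.64 without the first PRC1-WT library, which ends the call. Ppia was the only one of 20 tested reference genes that differed, against 1.43% of all tested genes. Of the 19 with a mean of at least 10 RPKM, 13 were stable (68.4%), near the 71.9% of all genes at that level.

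Differing genes were more often short and noncoding than tested genes as a whole. Among those placed in RefSeq, long noncoding RNAs made up 26.4% of differing and 11.1% of tested genes, and protein-coding genes 64.2% and 86.7%. The median exon length in GENCODE M21 was 2119 bases for differing and 3941 bases for tested genes, and the share with a single exon was 13.4% and 3.80%. In 20.4% of differing genes more than 50% of 31-base words also occurred in another gene's transcripts, against 5.93% of tested genes. Among stable genes, 4.34% were long noncoding RNAs and 4.31% shared most words, close to the 5.30% and 5.61% of all genes with a mean of at least 10 RPKM, the level that the stable call requires. GC content of transcripts was alike, with medians of 48.7% and 48.5% for differing and tested genes. Differing genes averaged lower levels, with a median of 6.15 RPKM against 8.50 RPKM for tested genes, and 61 of the 172 stayed under 5 RPKM in the higher set. In 12 of the 172 one set was listed at 0 in every library.

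Several groups of genes had median shifts under 2-fold. Of the groups that follow, only the mitochondrial mRNAs moved in 1 direction throughout. All 13 mRNAs encoded by the mitochondrial genome were higher in both PRC1-WT libraries than in any P1P6MLL WT library, though 0 differed by 2-fold. Among all tested genes, 43.2% did not overlap between the sets and 1.43% differed. ND2, a subunit of complex I, had 495 and 262 RPKM in PRC1-WT, against 169, 198 and 182 RPKM in P1P6MLL WT. ATP6, a subunit of ATP synthase, had 2919 and 1959 RPKM in PRC1-WT, against 1230, 1231 and 1399 RPKM in P1P6MLL WT. The first PRC1-WT library was the highest for every one of the 13 and the second was next. The median difference was 0.72, and leaving out single libraries moved it between 0.39 and 1.11. These mRNAs took 2.11% and 1.31% of the RPKM in PRC1-WT, against 0.897%, 0.937% and 1.07% in P1P6MLL WT. In the mutants the share was 1.77% and 1.48% in PRC1-CD, 1.58% to 2.38% in TKO and 0.724% to 0.886% in DKO. The nuclear genes for subunits of the same respiratory complexes had a median of -0.20, with 0 of 74 differing, against 1.43% of all tested genes. Of the 72 with a mean of at least 10 RPKM, 38 were stable (52.8%), against 71.9% of all genes at that level. Single members ran from -0.74 to 0.64. Atp5e, a small subunit of ATP synthase, had 652 and 1037 RPKM in PRC1-WT, against 1301, 1366 and 1455 RPKM in P1P6MLL WT.

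The cytosolic ribosomal proteins had a median difference of -0.22, with 0 of 79 differing, against 1.43% of all tested genes. Of the 78 with a mean of at least 10 RPKM, 46 were stable, against 71.9% of all genes at that level. Rpl5 had 701 and 1097 RPKM in PRC1-WT, against 1289, 1220 and 1262 RPKM in P1P6MLL WT. The genes of the subcortical maternal complex and the oocyte NLRP family, proteins laid down under the oocyte membrane, had a median of -0.30. In that list 0 of 16 differed and 6 of 15 were stable, against the same 1.43% and 71.9%. Ooep had 1510 and 2018 RPKM in PRC1-WT, against 2933, 2703 and 2769 RPKM in P1P6MLL WT, and Nlrp5 had 148 and 259 RPKM in PRC1-WT, against 347, 286 and 342 RPKM in P1P6MLL WT. Differences of single ribosomal genes ran from -0.68 to 0.36, and those of the maternal complex list from -0.72 to 0.10. In Rpl5, Ooep and Nlrp5 the first PRC1-WT library was the lowest of the 5. The medians of the nuclear respiratory, ribosomal and maternal complex lists kept their sign under the 3 other scalings. Without the first PRC1-WT library they were -0.03, -0.07 and -0.11 in the same order, and without the second -0.40, -0.37 and -0.43. Transcript length moved with the same library. With genes ranked by exon length in 5 equal classes, the shortest class had a median length of 1210 bases. There the first PRC1-WT library lay at a median of -0.11 against the second, and at 0.14 in the longest class, with a median of 9570 bases. The second PRC1-WT library minus the P1P6MLL WT mean had medians of 0.02 and 0.03 in the same classes. The part of length in the list medians was not tested.

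**Figure D5:**
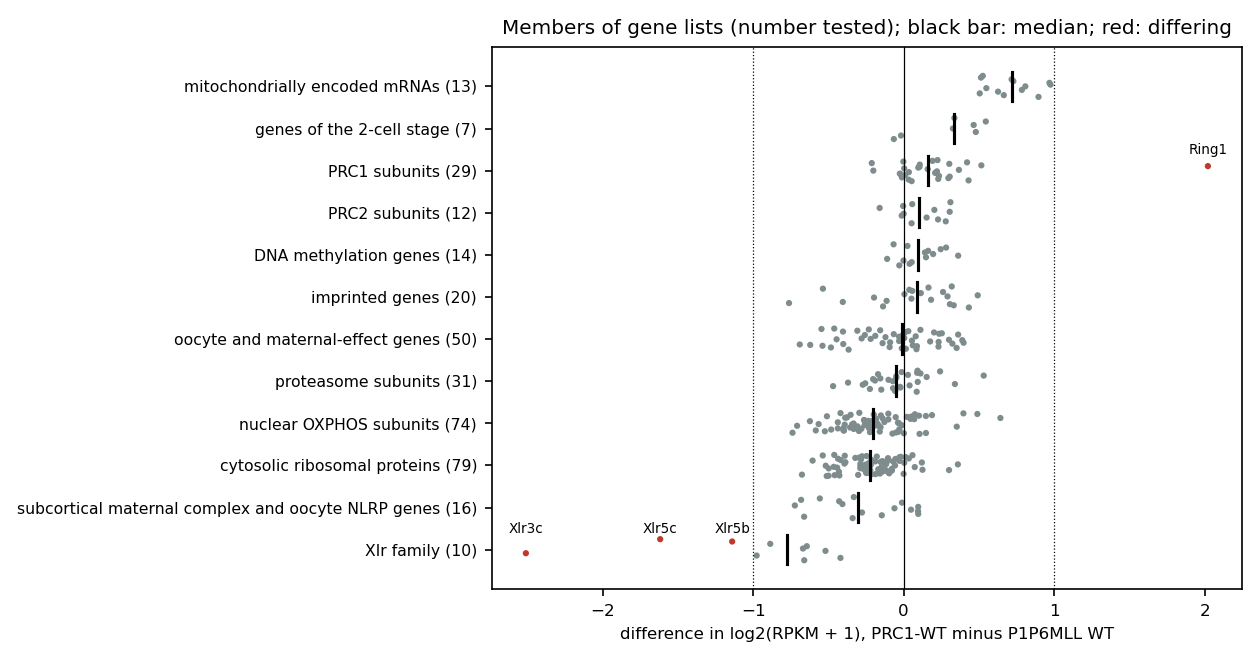
Difference in log2(RPKM + 1), PRC1-WT minus P1P6MLL WT, of each tested member of 12 gene lists, with a black bar at the list's median and dotted lines at a 2-fold difference. Red points are the members that differ, Ring1 and 3 Xlr genes, and all 13 mitochondrial mRNAs lie to the right of 0.

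The genes targeted in the study's mutants were expressed in both control sets, apart from Ring1. Pcgf1 had 1350 and 1234 RPKM in PRC1-WT, against 1094, 1153 and 1077 RPKM in P1P6MLL WT. Pcgf6 had 161 and 183 RPKM in PRC1-WT, against 148, 159 and 155 RPKM in P1P6MLL WT. Both were stable, with differences of 0.22 and 0.16. Kmt2b had 4.98 and 4.94 RPKM in PRC1-WT, against 4.43, 5.16 and 4.96 RPKM in P1P6MLL WT. Rnf2, the other catalytic subunit of PRC1, had 63.1 and 47.4 RPKM in PRC1-WT, against 37.6, 39.3 and 36.9 RPKM in P1P6MLL WT. Its difference of 0.52 did not reach 2-fold. Of 29 tested PRC1 subunits Ring1 alone differed, against 1.43% of all tested genes, and 14 of 17 were stable, against 71.9%. The median was 0.16, and it was 0.07 with aligned medians and 0.04 without the first PRC1-WT library.

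A few single members of other lists differed. Nr5a2, a nuclear receptor gene listed with the granulosa markers, had 11.5 and 15.2 RPKM in PRC1-WT, against 5.18, 5.49 and 5.23 RPKM in P1P6MLL WT. Its difference of 1.18 was 0.99 without the second PRC1-WT library. Cyp19a1, the aromatase gene of the same list, had 16.3 and 18.1 RPKM in PRC1-WT, against 25.6, 22.1 and 22.3 RPKM in P1P6MLL WT. Krt8, a keratin gene of the same list, had 2.02 and 0.84 RPKM in PRC1-WT, against 0.53, 0.11 and 0.10 RPKM in P1P6MLL WT. The part of granulosa RNA in the level of Nr5a2 was not tested. Dmc1, the meiotic recombinase, had 1.83 and 0.19 RPKM in PRC1-WT, against 3.45, 3.63 and 4.53 RPKM in P1P6MLL WT, and its difference of -1.40 was -0.78 without the second PRC1-WT library. Of 7 tested genes of the 2-cell stage, 5 did not overlap, against 43.2% of all tested genes, and had differences of 0.33 to 0.55, among them the multicopy gene Zscan4d at 11.7 and 11.7 RPKM in PRC1-WT, against 8.54, 6.83 and 7.82 RPKM in P1P6MLL WT. Of 24 tested genes listed for strain-dependent expression, Rnaset2b was higher and Xlr3c lower, against 1.43% of all tested genes that differed. That list comes from general knowledge but was written with earlier results of these data known. Its count is therefore not independent of them, and a part of strain was not tested.

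Variation inside a set reached the size of the largest differences between sets. The median SD on the log2 scale was 0.14 in PRC1-WT (n = 2) and 0.09 in P1P6MLL WT (n = 3), and a range of 1 or more was found in 154 and 143 genes. Gsto2, an omega-class glutathione transferase gene, had 0.21 RPKM in the first PRC1-WT library and 99.2 RPKM in the second, against 0.14, 0.30 and 0.47 RPKM in P1P6MLL WT. It had 175 and 103 RPKM in PRC1-CD and at most 0.89 RPKM in the TKO and DKO libraries. Gsto2 does not count as differing, because the first PRC1-WT library lay among the P1P6MLL WT values. Cphx1, an oocyte homeobox gene, had 0.53 and 73.3 RPKM in PRC1-WT, against 68.7, 41.6 and 91.6 RPKM in P1P6MLL WT. Gm8210, a pseudogene, had 0.74 and 0.93 RPKM in PRC1-WT, against 0.83, 32.4 and 30.5 RPKM in P1P6MLL WT. Here the library that broke the pattern was the first of P1P6MLL WT, as in Tceal8 and Gm35239. Of the 31-base words of Cphx1 and Gm8210, 80.4% and 100% also occur in transcripts of other genes. The part of reads divided between copies in their values was not tested. The small-RNA genes Mir762, Mir1949, Mir3082 and Mir24-1 were also among the most variable, each listed at 0 in at least 3 of the 5 libraries.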

How the data were processed

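RNA of full-grown oocytes was measured in 2 PRC1-WT and 3 P1P6MLL WT libraries, grouped by title. The authors deposited RPKM values, rounded to 2 decimals, in 2 separately normalised tables of 35842 and 35869 symbols. RSEM 1.3.1, featureCounts 1.6.0, STAR 2.7.3 and 2.7.6 and Trim Galore 0.6.4, with mm10 and GRCm38, are listed per the submitters' processing notes, without a link between tools and tables. Depth is unknown, because values near 0 did not fall on multiples of 1 read, so no counting interval is given. The kit does not mark strand. Whether replicates came from separate animals is not stated.

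Symbols turned into dates (27 in each table) were dropped, and the tables were joined on symbol. Values were analysed as log2(RPKM + 1) with pandas 2.3.3 and numpy 2.4.6 in Python 3.11.15, and the calling rule was tested on simulated data. A fold on this scale understates the change of low genes. Of 12019 tested genes, 11725 were placed in the RefSeq annotation of GRCm38.p6 by symbol or synonym. Transcripts, exon lengths and 31-base words come from GENCODE M21.

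Named are the 15 largest differences in each direction with a mean of at least 5 RPKM in the higher set, the 10 narrowest ranges at a mean of at least 100 RPKM, the 10 most abundant genes, the 5 widest ranges within each set, the targeted genes and members of 23 gene lists. Members and lists were chosen with earlier results of these data known. The genes of the runs, Rnaset2a, Rn7s1, Gm4141, Gm4201 and the genes of the heat map were chosen after their values were seen. Scaling, pseudocount, filters, limits and libraries were varied as alternatives. The promoters of differing genes were not analysed.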

Additional observations from a re-analysis of the deposited data

How the results depend on the processing

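Of 71 differing genes that were named, listed, part of a run or just inside the limit, 50 kept the call under every alternative that gave a value except the 4-fold limit, and 0 changed sign. Calls lost without single libraries were those of Ppia, Vil1, Snhg6 and Bcat2 (first PRC1-WT), Nr5a2, Dmc1, Hist1h2ao, Bst2, Gm17576, Acy3 and 4932438A13Rik (second PRC1-WT), and Rnf25 and Mau2 (P1P6MLL WT replicate 3), with 6 other genes of the runs. Gm4141, Gm4201 and Vil1 lost theirs with aligned medians and under quantile normalisation, and Bst2 under quantile normalisation. A common total ended the calls of Acy3, Snhg6, Nudt6 and Arl8a. The counts moved more, against 88 higher, 84 lower and 4027 stable. A common total gave 141 higher. A pseudocount of 0.1 gave 229 higher and 158 lower, and a minimum of 5 RPKM gave 54 higher. A fold limit of 1.5 gave 416 higher and 262 lower, and a limit of 4 gave 13 and 15. Leaving out genes that overlap another gene gave 53 higher, 52 lower and 2263 stable, since fewer genes were counted. Leaving out single libraries gave 90 to 161 higher, 89 to 128 lower and 4118 to 4967 stable, since fewer libraries have to separate or to lie close. There were 1599 stable genes at a range limit of 0.25, and 950 at a mean of at least 100 RPKM. All other counts stayed within 1.5 times. No paired analysis was possible because the result comes from no test and the sets share replicate numbers 1 and 2 only by name. Depth could not be read from the tables, so counting error at low RPKM is not bounded.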
